A study of Mus musculus with 8 samples.

Results

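The 9 genes described here are known for their expression in mouse embryonic stem cells (ESCs) and were followed across control and Dax1KO ESCs in 2 culture media. They were the developmental pluripotency associated genes Dppa2, Dppa4 and Dppa5a, the threonine dehydrogenase gene Tdh, the PRAME-family genes Pramel6 and Pramel7, the F-box gene Fbxo15, Utf1 and Tcl1. The 9 genes were taken from a fixed list of symbols matched to Ensembl gene IDs, out of 52550 genes listed, and all 9 were among the 20749 genes with enough counts to be tested. The RNA-seq libraries fell into 4 groups of 2: control and Dax1KO ESCs in 2i/LIF, and control and Dax1KO ESCs in LIF/serum. 2i/LIF was N2B27 medium with 1 µM PD0325901, an inhibitor of the kinase MEK, 3 µM CHIR99021, an inhibitor of the kinase GSK3, and 10 ng/ml of the cytokine LIF. LIF/serum was DMEM with 15% FBS and 10 ng/ml LIF. All cells were labelled passage 3 and grew on gelatin without feeder cells. The Dax1KO line was made with a CRISPR/Cas9 lentivirus under zeocin selection, was 1 clone picked in 2i/LIF, and was moved from there to LIF/serum, so that the knockout and the choice of that clone cannot be told apart. The comparisons asked how these markers responded to loss of Dax1, an orphan nuclear receptor of the pluripotency network, in each medium, and to the medium in each genotype.

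The 9 genes are used as marks of the undifferentiated state because they are silent or low in most somatic tissues. DPPA2 and DPPA4 are SAP-domain chromatin proteins that bind together and help to switch on genes of the 2-cell embryo, among them Dux and the Zscan4 cluster. PRAMEL7 is a leucine-rich protein that acts as a substrate receptor of a CUL2 ubiquitin ligase and directs the DNA methylation cofactor UHRF1 to degradation. FBXO15 is the substrate receptor of an SCF ubiquitin ligase and its gene is a classic target of OCT4 and SOX2, UTF1 is a chromatin-associated factor with the same upstream regulators, TDH starts the conversion of threonine to glycine and acetyl-CoA on which mouse ESCs depend, TCL1 is a coactivator of the kinase AKT, and DPPA5A is an RNA-binding protein with a KH domain.

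Total counts per library were between 35911384 and 37286251. Dax1 itself, the targeted gene, had 456 and 300 counts in the 2i/LIF control libraries and 0 and 0 in the 2i/LIF Dax1KO libraries, and 5095 and 4689 in the LIF/serum control libraries against 14 and 6 in the LIF/serum Dax1KO libraries. All 6 ESC marker genes were detected in every group, and their summed level was 3940 to 4040 CPM (counts scaled to a fixed library size) in 2i/LIF control, 3180 to 3270 in 2i/LIF Dax1KO, 3530 to 3710 in LIF/serum control and 3150 to 3410 in LIF/serum Dax1KO. Markers of primitive endoderm (8 genes, none at or under 3 counts throughout a group) summed to 75.4 to 76.8, 57.1 to 72.1, 254 to 346 and 548 to 654 CPM in the same 4 groups. Those of trophectoderm (6 genes, with Cdx2 at 0 in all 2i/LIF libraries) summed to 58.9 to 77.7, 156 to 167, 77.7 to 79.7 and 148 to 170 CPM. Mesoderm markers (7 genes) summed to 29.0 to 29.7, 34.8 to 35.0, 13.7 to 13.9 and 29.0 to 31.5 CPM, and fibroblast markers (8 genes, of which 3 or 4 were at or under 3 counts in each group) to 50.8 to 63.9, 33.8 to 35.8, 12.6 to 13.2 and 39.0 to 41.1. Neural ectoderm markers (5 genes) summed to 138 to 140, 118 to 118, 149 to 166 and 120 to 147 CPM. In LIF/serum the sums of primitive endoderm, trophectoderm, mesoderm and fibroblast markers were higher in Dax1KO than in control, and that of neural ectoderm lower. In 2i/LIF those of trophectoderm and mesoderm were higher and those of primitive endoderm, neural ectoderm and fibroblast lower. Median log2 Dax1KO differences for primitive endoderm, trophectoderm, mesoderm, fibroblast (4 tested genes) and neural ectoderm were 1.32, 0.65, 0.30, 1.28 and -0.28 in LIF/serum. In 2i/LIF they were -0.22, 1.19, -0.69, 0.71 and -0.55. There the mesoderm and fibroblast sums ran against their medians. The mesoderm gene Eomes had 621 and 790 counts in control and 1125 and 1074 in Dax1KO. The fibroblast gene Thy1 had 1721 and 2188 in control and 1122 and 1111 in Dax1KO. The part of these markers in the results below was not tested. In bulk libraries, fewer cells that express a gene and less of its RNA per cell cannot be told apart. Genes of chromosome 6 had a median Dax1KO difference of 0.44 (log2) in 2i/LIF and 0.52 in LIF/serum, and none of the 9 genes lies there. The trophectoderm marker Tead4 does, with 618 and 562 counts in LIF/serum control and 2491 and 2401 in LIF/serum Dax1KO. The other trophectoderm markers differed by -0.85 (Cdx2) to 1.05 (Elf5) on the log2 scale in LIF/serum.

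On GRCm38, Dppa2 (chr16:48303908-48319723) and Dppa4 (chr16:48283733-48294237) lie on the plus strand of the same chromosome. Pramel6 (chr2:87506565-87510872, plus strand) and Pramel7 (chr2:87489087-87497093, minus strand) also share a chromosome. Dppa5a is at chr9:78367052-78368177 (minus), Tdh at chr14:63492347-63509092 (minus), Utf1 at chr7:139943789-139945112 (plus) and Tcl1 at chr12:105216750-105222793 (minus). All 9 genes are annotated as protein-coding genes. Tdh overlaps Gm17232 on the opposite strand, which held 96 to 180 counts. Whether counting used the strand is not given in the sources used here, so reads of such pairs cannot be told apart. Dppa2, Dppa4, Dppa5a and Tdh share long stretches of at least 95% identity with other annotated transcripts: 37.0% of the Dppa2 transcript with Gm9788 (53 to 160 counts), 56.5% of Dppa4 with Gm5501 (15 to 79 counts), 67.4% of Dppa5a with Pigp (307 to 794 counts) and 59.5% of Tdh with Gm13929 (2 to 23 counts). Their counts are therefore uncertain to the extent that reads were split, although each copy held far fewer counts than the gene. Pramel6, Pramel7, Utf1 and Tcl1 had no such match.

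RefSeq promoter windows (GRCm38.p6, 250 bases before and 50 after the start site) were matched for 4 of the 9 genes. The windows of the genes with the widest differences between media among these 4 are shown, each 5′ to 3′ on the gene's own strand, with every CpG, the dinucleotide that DNA methylation acts on, in capitals. Pramel6 is at chr2:87506315-87506614, Pramel7 at chr2:87492369-87492668 and Utf1 at chr7:139943606-139943905. The Pramel7 window surrounds the RefSeq start site and lies inside the gene as annotated by GENCODE, whose own 5′ end at 87497093 it does not reach, so its CpG and motif content describe the RefSeq start only.
Pramel6: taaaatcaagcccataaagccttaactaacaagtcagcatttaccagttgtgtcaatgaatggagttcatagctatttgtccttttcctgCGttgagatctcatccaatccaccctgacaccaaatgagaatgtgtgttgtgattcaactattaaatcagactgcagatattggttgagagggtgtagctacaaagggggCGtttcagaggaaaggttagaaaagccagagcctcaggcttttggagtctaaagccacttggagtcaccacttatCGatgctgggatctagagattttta
Pramel7: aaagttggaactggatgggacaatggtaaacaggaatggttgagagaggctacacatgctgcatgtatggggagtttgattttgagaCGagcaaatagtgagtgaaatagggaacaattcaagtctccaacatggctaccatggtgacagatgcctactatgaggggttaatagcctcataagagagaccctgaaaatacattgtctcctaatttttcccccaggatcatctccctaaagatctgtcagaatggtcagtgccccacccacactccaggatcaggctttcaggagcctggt
Utf1: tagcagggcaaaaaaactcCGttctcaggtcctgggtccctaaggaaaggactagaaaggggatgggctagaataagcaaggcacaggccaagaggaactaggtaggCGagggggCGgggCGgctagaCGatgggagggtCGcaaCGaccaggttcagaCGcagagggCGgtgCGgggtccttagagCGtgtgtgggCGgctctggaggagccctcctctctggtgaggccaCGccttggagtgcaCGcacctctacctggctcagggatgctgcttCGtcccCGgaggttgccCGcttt
The Pramel6 window holds 3 CpG and the Pramel7 window 1, below the median of 7 over 32851 windows, and 23.3% and 5.43% of windows hold fewer. The Utf1 window holds 17 CpG and that of Tcl1 11, and 68.6% and 58.6% of windows hold fewer. Of the 5 motifs searched on both strands in the 4 windows, the SOX motif ACAAAG was found once, in the Pramel6 window 60 bases before the start site (offset -60), and 18.7% of all windows hold it. The octamer ATGCAAAT (1.74% of windows), the nuclear receptor motif AAGGTCA (4.72%), the STAT palindrome TTCCNNGAA (4.81%) and the KLF motif GGGTGTGG (3.56%) were not found. Such a match is a description of the letters in the window.

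Expression levels spread widely among the 9 genes. In RPKM, which scales counts by merged exon length and library size (mean ± SD, n = 2), Dppa5a stood first in every group, at 1706 ± 83.4 in 2i/LIF control, 1953 ± 163 in 2i/LIF Dax1KO, 1661 ± 507 in LIF/serum control and 1702 ± 353 in LIF/serum Dax1KO. In 2i/LIF control it was followed by Fbxo15 (191 ± 27.8 RPKM), Utf1 (171.5 ± 43.3) and Tdh (157.9 ± 3.91), and the library values of Utf1 overlapped those of both others, while those of Fbxo15 were above those of Tdh. Next in RPKM in that group were Dppa4 (52.4 ± 4.87) and Tcl1 (49.3 ± 4.41), again with overlapping libraries, and Dppa2 (32.2 ± 8.92). Pramel6 (9.03 ± 0.764 RPKM) and Pramel7 (6.45 ± 0.661) were lowest. In 2i/LIF Dax1KO the order of RPKM was the same.
The order changed with the medium. In LIF/serum control, Utf1 came second (390 ± 58.1 RPKM), then Tdh (168 ± 6.54), Dppa4 (115 ± 0.310), Dppa2 (88.9 ± 2.02) and Fbxo15 (77.4 ± 12.1), with Dppa2 and Fbxo15 differing by less than the spread of Fbxo15. Tcl1 (41.3 ± 6.82 RPKM) stood well above Pramel7 (1.59 ± 0.0166) and Pramel6 (1.35 ± 0.320), which differed by less than the spread of Pramel6. In LIF/serum Dax1KO the RPKM of Dppa2 (94.8 ± 8.19) and Dppa4 (93.6 ± 1.64) overlapped, Fbxo15 was at 56.4 ± 1.65 and the remaining order was as in the control.

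**Figure D1:**
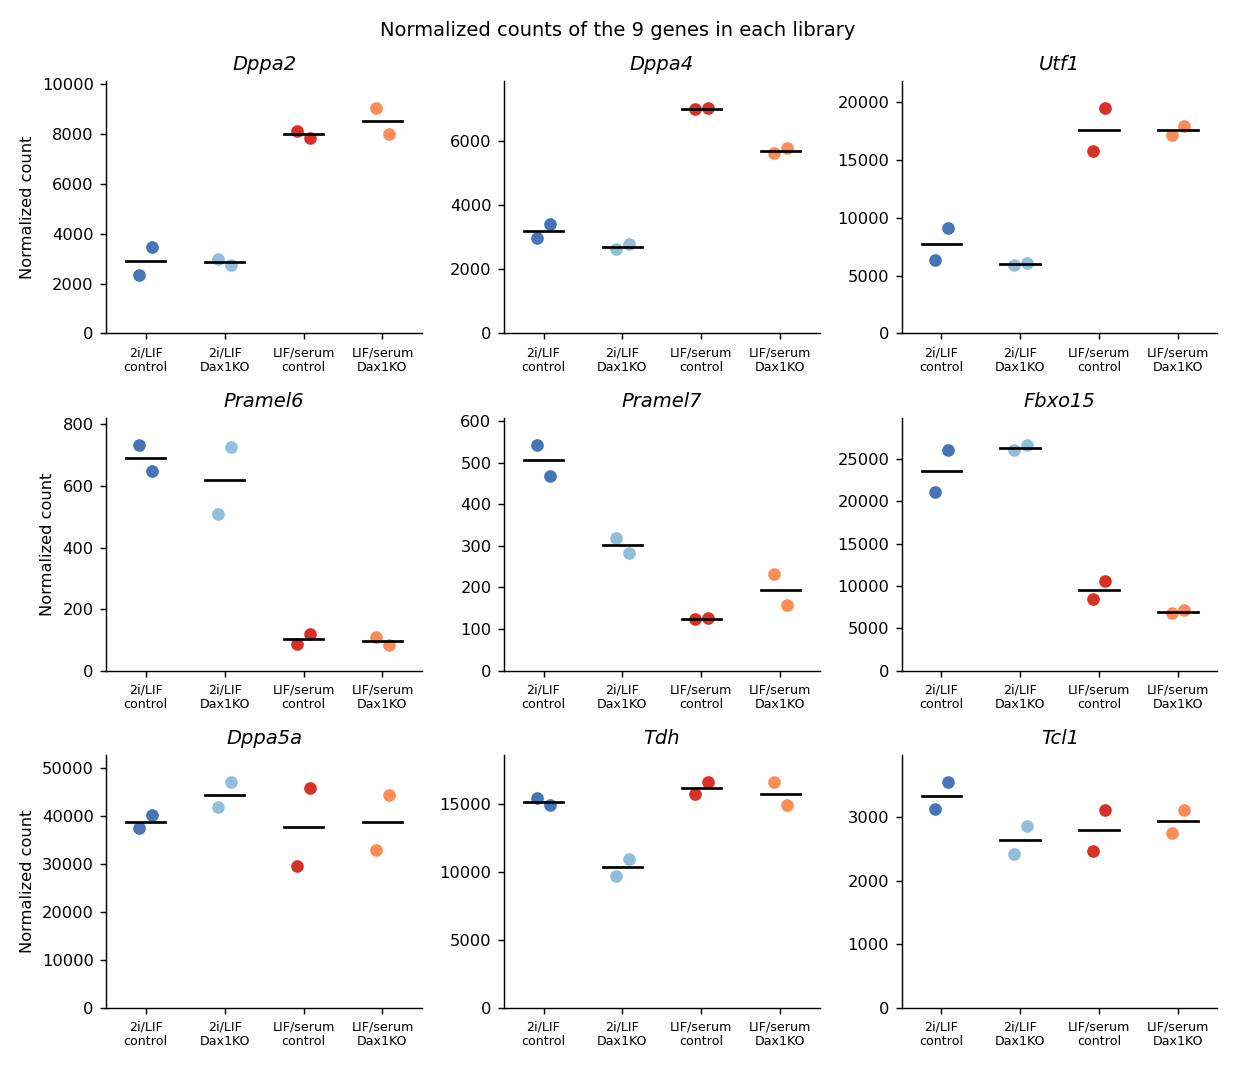
Normalized counts (y axis, linear, from 0) of the 9 genes in the 8 libraries, 1 panel a gene, with the 4 groups along the x axis, a point for each library and a bar at the mean of the 2 libraries. The upper row holds the genes lower in 2i/LIF than in LIF/serum, the middle row those higher in 2i/LIF, and the lower row Dppa5a, Tdh and Tcl1, of which only Tdh has a group (2i/LIF Dax1KO, 9677 and 10976) below all other libraries.

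The culture medium separated the 9 genes most. In control ESCs, Dppa2, Dppa4 and Utf1 were lower in 2i/LIF than in LIF/serum, and Pramel6, Pramel7 and Fbxo15 were higher. Genes were called by the quasi-likelihood test of edgeR, adjusted by Benjamini-Hochberg across the 20749 tested genes, at a threshold of 0.05, where the groups also differed by 1.2-fold or more. With 3 of the 9 genes called higher and 3 lower, the background was 20.3% of all tested genes called higher and 16.5% called lower in this comparison. Whether the share among the 9 genes differs from that background was not tested. Nothing in the labels states that the libraries of a group came from separate cultures, so p-values measure the spread between these samples, which may be technical.

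Dppa2 had normalized counts, that is counts scaled to a common library size, of 2327 and 3461 in 2i/LIF control and of 8118 and 7861 in LIF/serum control. The Dppa2 difference was -1.47 on the log2 scale (SE 0.182, 95% interval -1.88 to -1.05, adjusted p = 0.000641), 2.76-fold lower in 2i/LIF. Its partner Dppa4 had 2987 and 3407 in 2i/LIF control against 7017 and 7044 in LIF/serum control, a log2 difference of -1.14 (SE 0.110, interval -1.39 to -0.88, adjusted p = 0.000207). Both partners thus stood more than 2-fold lower in 2i/LIF with no overlap between libraries. Utf1 had 6352 and 9111 normalized counts in 2i/LIF control and 15739 and 19446 in LIF/serum control, a log2 difference of -1.19 (SE 0.179, interval -1.60 to -0.77, adjusted p = 0.00161). The 2i/LIF control libraries of Dppa2 and of Utf1 lay further apart from each other than those of Dppa4, with the second library the higher for both.

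Pramel6 gave the widest difference of the 9 genes. It had normalized counts of 733 and 650 in 2i/LIF control and of 85.8 and 120 in LIF/serum control, 6.69-fold higher in 2i/LIF (log2 2.74, SE 0.272, interval 2.12 to 3.37, adjusted p = 0.000231). Pramel7 had 542 and 469 in 2i/LIF control and 124 and 126 in LIF/serum control, 4.04-fold higher (log2 2.02, SE 0.232, interval 1.48 to 2.55, adjusted p = 0.000448). Both PRAME-family genes were the least expressed of the 9 per length, and no library of one medium reached the values of the other. Fbxo15 had 21148 and 26001 normalized counts in 2i/LIF control and 8496 and 10612 in LIF/serum control, 2.47-fold higher (log2 1.30, SE 0.145, interval 0.97 to 1.64, adjusted p = 0.000383). Fbxo15 (chr18:84934782-84981473, plus strand) overlaps Timm21 on the opposite strand, which held 59 to 115 counts in 2i/LIF and 369 to 727 in LIF/serum, far fewer than Fbxo15 and with the higher values in the other medium.

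Dppa5a, Tdh and Tcl1 were not called between media in control ESCs. Dppa5a had 37453 and 40137 normalized counts in 2i/LIF and 29623 and 45925 in LIF/serum, a log2 difference of 0.04 (interval -0.46 to 0.53, adjusted p = 0.909), with its 2 LIF/serum libraries lying on both sides of the 2i/LIF pair. Tdh had 15432 and 14901 in 2i/LIF and 15694 and 16582 in LIF/serum, a log2 difference of -0.09 (interval -0.34 to 0.16, adjusted p = 0.563). Tcl1 had 3130 and 3552 in 2i/LIF and 2470 and 3124 in LIF/serum, a log2 difference of 0.26 (interval -0.10 to 0.62, adjusted p = 0.234). The intervals bound the differences that these libraries allow for the 3 genes, and do not show equal levels.

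In Dax1KO ESCs, the same comparison called Pramel6 and Fbxo15 higher in 2i/LIF and Dppa2, Dppa4, Utf1 and Tdh lower, 2 and 4 of the 9 genes where 15.2% of all tested genes were called higher and 13.7% lower. The log2 differences were 2.68 for Pramel6 (SE 0.271, adjusted p = 0.000344), 1.92 for Fbxo15 (SE 0.147, adjusted p = 0.000102), -1.57 for Dppa2 (SE 0.182, adjusted p = 0.000641), -1.08 for Dppa4 (SE 0.110, adjusted p = 0.000354) and -1.54 for Utf1 (SE 0.180, adjusted p = 0.000657). These 5 genes were called in the same direction as in control ESCs. Tdh fell from 16584 and 14925 normalized counts in LIF/serum to 9677 and 10976 in 2i/LIF (log2 -0.61, SE 0.111, interval -0.86 to -0.35, adjusted p = 0.00512). That call was lost without the first 2i/LIF Dax1KO library (log2 -0.52, adjusted p = 0.0547).
Pramel7 was no longer called. It had 320 and 283 normalized counts in 2i/LIF Dax1KO and 231 and 158 in LIF/serum Dax1KO, a log2 difference of 0.63 (SE 0.224, interval 0.11 to 1.15, adjusted p = 0.0697), past the threshold without the first LIF/serum Dax1KO library (0.93, adjusted p = 0.0398). Dppa5a differed by 0.20 (interval -0.30 to 0.70, adjusted p = 0.542) and Tcl1 by -0.15 (interval -0.51 to 0.21, adjusted p = 0.514) on the log2 scale, neither past the threshold.

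**Figure D2:**
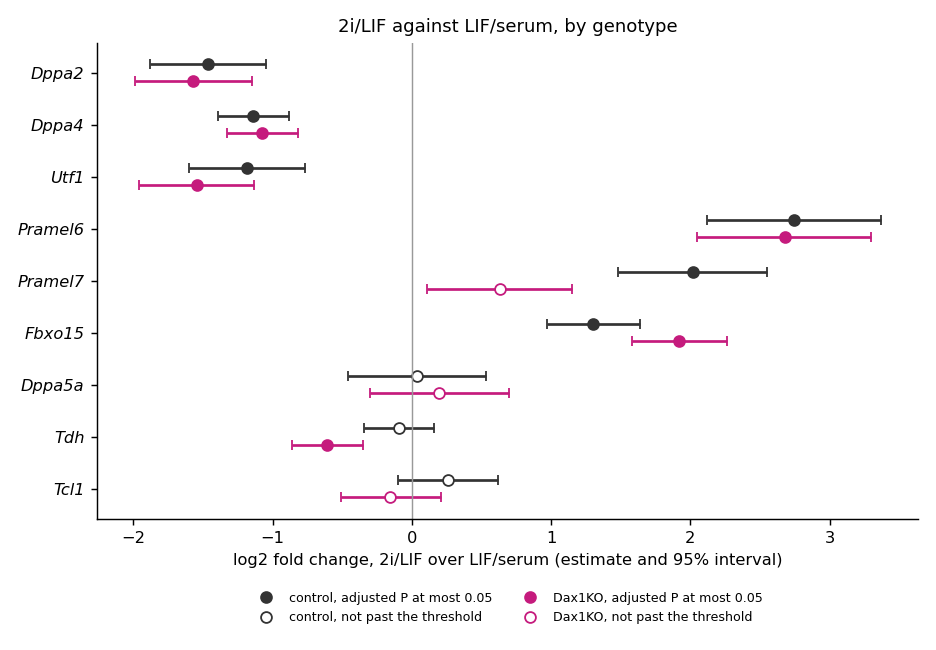
Log2 fold change of 2i/LIF over LIF/serum (x axis) for the 9 genes (y axis) in control ESCs (black) and Dax1KO ESCs (magenta), with points for the estimate, bars for its 95% interval and filled points for genes past the threshold. Dppa2, Dppa4 and Utf1 lie left of 0 and Pramel6 and Fbxo15 right of 0 in both genotypes, while Pramel7 lies at 2.02 in control and 0.63 in Dax1KO ESCs.

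In 2i/LIF, Tdh was lower in Dax1KO than in control ESCs, and no other gene of the 9 passed the threshold. The background was 1.51% of all tested genes called higher and 1.65% called lower, and among the 9 genes 0 were called higher and 1 lower by edgeR, as by DESeq2, with 0 higher and 2 lower at an unadjusted p under 0.05. Tdh had 15432 and 14901 normalized counts in control and 9677 and 10976 in Dax1KO, 1.47-fold lower (log2 -0.55, SE 0.111, interval -0.81 to -0.30, adjusted p = 0.0417). The estimate stayed between -0.65 and -0.47 in every alternative, but the adjusted p ranged from 0.000931 to 0.077 over the alternatives that kept all libraries and reached 0.264 when 1 library was left out. The call was lost without either 2i/LIF control library, either 2i/LIF Dax1KO library or either LIF/serum Dax1KO library, and it was also lost with no filter on low counts (0.077), in a fit of the 4 libraries alone (0.0510) and at a minimum fold change of 2.

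The other genes gave smaller or less certain differences in 2i/LIF. Pramel7 had 542 and 469 normalized counts in control and 320 and 283 in Dax1KO, 1.68-fold lower (log2 -0.75, SE 0.221, interval -1.26 to -0.24), a difference with no overlap of libraries that did not pass the adjusted threshold (adjusted p = 0.125). For Utf1, the Dax1KO libraries had 5942 and 6109 normalized counts, below both control libraries, with a log2 difference of -0.36 (interval -0.77 to 0.05, adjusted p = 0.345). Tcl1 had 2426 and 2859 in Dax1KO, also below both control libraries (-0.34, interval -0.70 to 0.02, adjusted p = 0.309). Dppa4 lay at 2631 and 2795 in Dax1KO (-0.24, interval -0.49 to 0.01, adjusted p = 0.306). Together with Tdh and Pramel7 these made 5 genes whose Dax1KO libraries were both below both control libraries, and 2 genes, Dppa5a (0.20, interval -0.30 to 0.69, adjusted p = 0.729) and Fbxo15 (0.16, interval -0.17 to 0.49, adjusted p = 0.649), had both above. Of all tested genes, 26.8% had both Dax1KO libraries below both control libraries in 2i/LIF and 25% had both above. Dppa2 (-0.01, interval -0.43 to 0.40, adjusted p = 0.991) and Pramel6 (-0.16, interval -0.73 to 0.41, adjusted p = 0.820) overlapped between genotypes. The median log2 difference of the 9 genes was -0.24, where that of all tested genes was -0.011.

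In LIF/serum, none of the 9 genes was called between genotypes by edgeR, where 8.87% of all tested genes were called higher and 5.78% lower. At an unadjusted p under 0.05, 3 genes passed together with the fold change, and DESeq2 called 1, Fbxo15. Fbxo15 had 8496 and 10612 normalized counts in control and 6818 and 7107 in Dax1KO, 1.37-fold lower (log2 -0.46, SE 0.143, interval -0.79 to -0.13, adjusted p = 0.0697). Its adjusted p ranged from 0.0270 with DESeq2 to 0.139 over the alternatives with all libraries, and without the first LIF/serum control library it was 0.0423 (log2 -0.61). Pramel7 had 124 and 126 in control and 231 and 158 in Dax1KO, 1.56-fold higher (log2 0.64, SE 0.229, interval 0.11 to 1.17, adjusted p = 0.102). Dppa4 had 7017 and 7044 in control and 5645 and 5787 in Dax1KO, 1.23-fold lower (log2 -0.30, SE 0.108, interval -0.55 to -0.05, adjusted p = 0.104). These 3 genes, 1 higher and 2 lower in Dax1KO, had no overlap between the genotypes' libraries, as had 30.3% of all tested genes on the higher and 27.2% on the lower side.
The other 6 genes overlapped between genotypes in LIF/serum. Their log2 differences were 0.09 for Dppa2 (interval -0.32 to 0.50), 0.03 for Dppa5a (-0.46 to 0.53), -0.03 for Tdh (-0.29 to 0.22), -0.10 for Pramel6 (-0.72 to 0.53), -0.003 for Utf1 (-0.41 to 0.40) and 0.07 for Tcl1 (-0.29 to 0.43), with adjusted p between 0.771 and 1. The sign of each of these 6 except Dppa2 turned under at least 1 alternative.

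**Figure D3:**
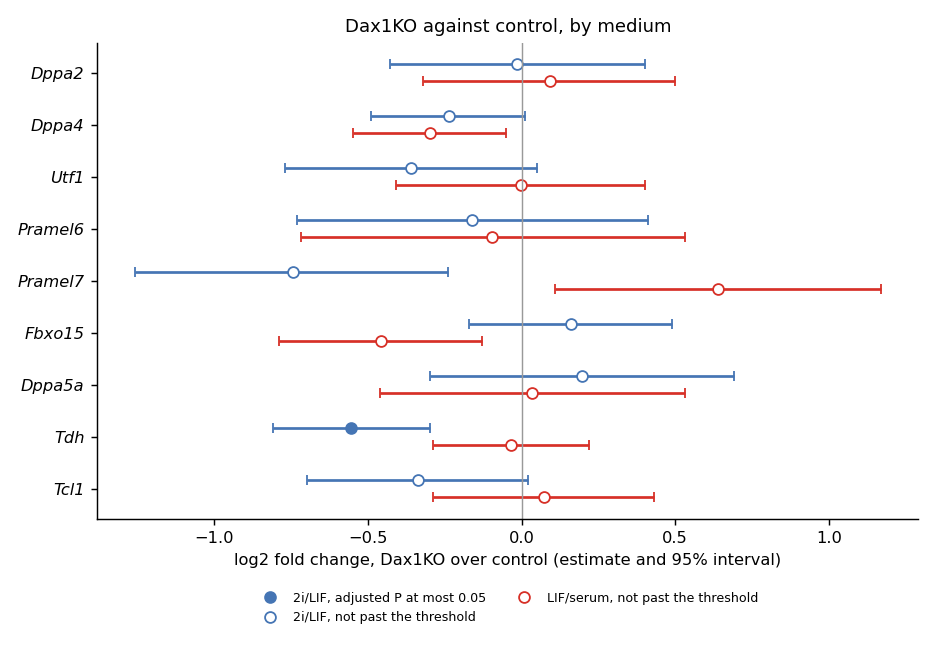
Log2 fold change of Dax1KO over control (x axis) for the 9 genes (y axis) in 2i/LIF (blue) and LIF/serum (red), with points for the estimate, bars for its 95% interval and a filled point for Tdh in 2i/LIF, the 1 gene past the threshold. The points of Pramel7 lie at -0.75 (2i/LIF) and 0.64 (LIF/serum), and their intervals do not meet.

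Whether the Dax1KO difference itself depended on the medium was tested as an interaction. By edgeR, 0 of the 9 genes passed an adjusted p of 0.05, where 2.87% of all tested genes did, 3 passed at an unadjusted p under 0.05, and DESeq2 called 1. Pramel7 had the widest interaction, with a Dax1KO difference 1.39 higher on the log2 scale in LIF/serum than in 2i/LIF (SE 0.319, interval 0.65 to 2.12, adjusted p = 0.0659). DESeq2 gave an adjusted p of 0.0104 for it, and the range over the alternatives with all libraries was 0.0104 to 0.127. The same gene had a 4.04-fold medium difference in control ESCs and a 1.55-fold one in Dax1KO ESCs. For Fbxo15 the interaction was -0.62 (SE 0.202, interval -1.08 to -0.15, adjusted p = 0.152), and for Tdh 0.52 (SE 0.156, interval 0.16 to 0.88, adjusted p = 0.126). The Tdh difference is thus not shown to differ between media. The other 6 interactions lay between -0.16 and 0.41, with adjusted p of at least 0.365.

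Genes that work with the 9 were counted from lists by role. For Dppa2 and Dppa4, 10 genes of the 2-cell embryo that depend on them were followed. In control ESCs, 7 of the 10 were lower in 2i/LIF, against 16.5% of all tested genes, with a median log2 difference of -3.05 where that of all tested genes was 0.013. Zscan4c, Zscan4d and Zscan4f, which encode zinc-finger proteins of a single multicopy cluster, differed by -4.98, -4.12 and -4.87, and Duxf3, the Dux transcription factor, by -3.26 (adjusted p = 3.63e-05, 7.62e-05, 3.26e-05 and 0.00351). In Dax1KO ESCs all 10 were lower in 2i/LIF, against 13.7% of all tested genes. Over the alternatives that kept all libraries, 1 to 8 were called lower in control and 2 to 10 in Dax1KO ESCs. Between genotypes in 2i/LIF, 5 of the 10 were lower in Dax1KO, against 1.65% of all tested genes, with a median of -2.99 and with 1 to 8 called over those alternatives. Zscan4d had 114 and 212 counts in 2i/LIF control and 8 and 4 in 2i/LIF Dax1KO (log2 -4.77, SE 0.443, adjusted p = 0.00440), Zscan4c 89 and 160 against 15 and 8 (-3.46, adjusted p = 0.00820), Zscan4f 115 and 211 against 18 and 17 (-3.25, adjusted p = 0.00809), and Sp110 38 and 154 against 5 and 12 (-3.52, adjusted p = 0.0438). Tcstv1 had 7 and 26 counts in 2i/LIF control and 0 and 0 in 2i/LIF Dax1KO, at least 11.3-fold lower against a floor of 3 counts over the group, and did not pass the threshold.
In LIF/serum, where the Zscan4 genes held 2055 to 5190 counts a library, 0 of the 10 were called by edgeR, 0 at an unadjusted p under 0.05 and 0 by DESeq2, with a median of -0.25. Of all tested genes, edgeR called 8.87% higher and 5.78% lower in that comparison. The interaction was called for Zscan4d (4.31, adjusted p = 0.0126), Zscan4c (3.14, adjusted p = 0.0229) and Zscan4f (2.99, adjusted p = 0.0203). Dppa2 itself differed by -0.01 between genotypes in 2i/LIF and Dppa4 by -0.24, as given above. The Zscan4 genes and most others of this list have near-identical copies, so their counts are uncertain, and the 5 calls in 2i/LIF became 1 without the first 2i/LIF Dax1KO library, 0 without the second, 3 without the second 2i/LIF control library and 3 without the second LIF/serum Dax1KO library, while DESeq2 made 8. Of all tested genes 2.87% were called for the interaction, and over the alternatives that kept all libraries 0 to 6 of the 10 were. The 3 interaction calls became 0 without either 2i/LIF Dax1KO library, 1 without either LIF/serum Dax1KO library, 2 without the second 2i/LIF control or first LIF/serum control library, and 5 without the first 2i/LIF control library.

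The other annotated genes whose symbols start with Prame numbered 13, of which 10 had enough counts to be tested. Among the 10 is Pramef12os, named for the opposite strand of Pramef12 and not a PRAME gene itself, and near-identical copies under other symbols, such as Gm13128 for Pramef17, were not counted. In control ESCs 7 of the 10, Pramef12os included (2.04), were higher in 2i/LIF, as Pramel6 and Pramel7 were, and 2 were lower, against 20.3% and 16.5% of all tested genes, with a median log2 difference of 2.33. Pramel3 had 3048 and 2820 counts in 2i/LIF control and 79 and 43 in LIF/serum control (log2 5.50, SE 0.258, adjusted p = 1.62e-05), Pramef17 1003 and 1059 against 72 and 79 (3.68, SE 0.251, adjusted p = 5.04e-05) and Pramel1 800 and 667 against 87 and 58 (3.25, SE 0.259, adjusted p = 8.97e-05). Pramef20 had 11 and 22 counts in 2i/LIF control and 0 in every LIF/serum library, at least 10.4-fold higher against a floor of 3 counts over the group. The 2 that went the other way were Pramef25 (-3.23, adjusted p = 0.00229) and Pramef6 (-2.20, adjusted p = 0.0454), both with near-identical copies. In Dax1KO ESCs 6 were higher in 2i/LIF, again with Pramef12os, and 2 lower, against 15.2% and 13.7% of all tested genes. In control ESCs 1 lower call was made without the first 2i/LIF control library or without any 1 of the LIF/serum libraries.
Between genotypes, 0 of the 10 were called by edgeR in 2i/LIF (3 at an unadjusted p under 0.05 and 3 by DESeq2), against 1.51% of all tested genes higher and 1.65% lower. In LIF/serum 4 were higher in Dax1KO, where 8.87% of all tested genes were. Pramef17 had 206 and 304 counts in LIF/serum Dax1KO (log2 1.62, SE 0.241, adjusted p = 0.00660), Pramel1 182 and 236 (1.39, SE 0.251, adjusted p = 0.0119), Pramel3 133 and 142 (1.03, SE 0.246, adjusted p = 0.0301), and Pramef12 3354 and 3986 against 2282 and 1922 in control (0.67, SE 0.142, adjusted p = 0.0208). The count of calls in LIF/serum was 1 in place of 4 without the second LIF/serum control library or without the second LIF/serum Dax1KO library. The interaction was called for 2 of the 10, against 2.87% of all tested genes. They were Pramef17 (1.99, adjusted p = 0.0258) and Pramel1 (1.74, adjusted p = 0.0417), both of them lower in 2i/LIF Dax1KO by estimates of -0.37 and -0.35 that did not pass the threshold. Whichever library was left out, 1 or 0 interaction calls were made: 1 without the first LIF/serum control or first LIF/serum Dax1KO library, and 0 without any of the other 6. Pramef17 and Pramel3 have near-identical copies, and Pramef12 overlaps Pramef12os, itself 1 of the 10.

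**Figure D4:**
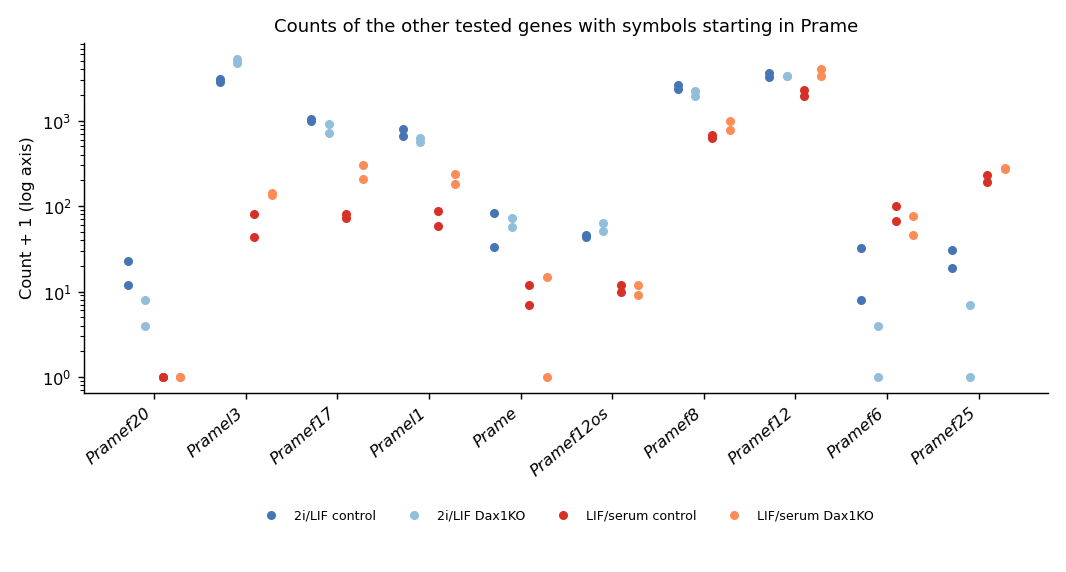
Counts plus 1 (y axis, log scale) of the 10 other tested genes whose symbols start with Prame (x axis, ordered by their 2i/LIF over LIF/serum difference in control ESCs) in the 8 libraries, colored by group. Pramel3, Pramef17 and Pramel1 hold 558 to 5333 counts in 2i/LIF and 43 to 304 in LIF/serum, and the LIF/serum Dax1KO libraries of these 3 genes lie above both LIF/serum control libraries.

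Of 11 genes for the PRAMEL7 ligase and DNA methylation, control ESCs had 2 higher and 4 lower in 2i/LIF, against 20.3% and 16.5% of all tested genes, with a median log2 difference of -0.50. Uhrf1, the substrate of PRAMEL7, was 0.91 higher (SE 0.117, adjusted p = 0.000760) and Dnmt1, the maintenance methyltransferase, 0.81 higher (SE 0.144, adjusted p = 0.00355). Dnmt3l, the cofactor of de novo methylation, was lower by -2.42 (adjusted p = 0.000541), Dnmt3b, a de novo methyltransferase, by -1.79 (adjusted p = 0.000230), Tet1, which oxidizes methylcytosine, by -0.88 (adjusted p = 0.0142) and Rbx1 by -0.50 (adjusted p = 0.0276). In Dax1KO ESCs 2 were higher and 4 lower, against 15.2% and 13.7% of all tested genes, and the 4 were Dnmt3l (-2.38), Dnmt3a, a de novo methyltransferase (-1.94), Elob (-1.26) and Dnmt3b (-1.22), while Tet1 (-0.15, adjusted p = 0.635) and Rbx1 (-0.37, adjusted p = 0.0887) were not called. Of the lower calls in control ESCs, 2 were made without the first 2i/LIF control library, and of the higher calls in Dax1KO ESCs, 1 was made without the second library of either Dax1KO group. Against control in 2i/LIF, the 1 gene called was Elob, an elongin that links substrate receptors to CUL2, with 9772 and 10233 counts in control and 3824 and 3150 in Dax1KO (log2 -1.56, SE 0.155, adjusted p = 0.00652). That made 1 of the 11 lower and 0 higher, against 1.65% and 1.51% of all tested genes. In LIF/serum 0 were called by edgeR, against 8.87% of all tested genes higher and 5.78% lower, with 2 at an unadjusted p under 0.05 and 2 by DESeq2. The Elob interaction was 1.10 (adjusted p = 0.0419), the 1 such call among the 11, against 2.87% of all tested genes. Elob overlaps Srrm2, 61.1% of its transcript has a near-identical copy, and its call in 2i/LIF was lost without the second 2i/LIF Dax1KO library. With each of the 8 libraries left out in turn, 1 interaction call was made on this list without the second LIF/serum control library and 0 without any of the others.

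For Tdh, 20 genes of threonine, glycine and one-carbon metabolism were counted. In 2i/LIF 1 was higher in Dax1KO and 1 lower, against 1.51% and 1.65% of all tested genes, with a median of 0 where all tested genes had -0.011. The 2 were Mthfd2, a mitochondrial folate enzyme (0.61, SE 0.127, adjusted p = 0.0460), and Ahcy, which breaks down S-adenosylhomocysteine (-0.47, SE 0.0928, adjusted p = 0.0417). Gcat, which carries out the step after TDH, had 2886 and 3023 counts in control and 4435 and 4082 in Dax1KO, a log2 difference of 0.49 that did not pass (SE 0.128, adjusted p = 0.0866). In LIF/serum Mthfd2 was again higher (0.90, adjusted p = 0.00574) and Tyms, thymidylate synthase, lower (-0.79, adjusted p = 0.00913), again 1 and 1 of the 20, against 8.87% and 5.78% of all tested genes. Mthfd2 lies on chromosome 6, whose genes were higher in Dax1KO in the median by 0.44 and 0.52, and 81.9% of the Ahcy transcript has a near-identical copy. Between media in control ESCs 4 were higher in 2i/LIF and 7 lower, against 20.3% and 16.5% of all tested genes, with Mthfd2l (-1.93, adjusted p = 0.0222), Tyms (-0.94, adjusted p = 0.00114), Mat2b (-0.94, adjusted p = 0.000995) and Ahcy (0.83, adjusted p = 0.000408) the most changed of the 11. In Dax1KO ESCs 3 were higher and 7 lower, against 15.2% and 13.7%. In control ESCs the 4 and 7 became 1 and 4 without the second 2i/LIF control library and 3 and 4 without the first 2i/LIF or first LIF/serum control library. In Dax1KO ESCs the 3 and 7 became 1 and 2 without the second 2i/LIF Dax1KO library, 2 and 3 without the first, 2 and 3 without the first LIF/serum Dax1KO library, and 1 and 4 without the second. Both calls in 2i/LIF were lost without any 1 of the 2i/LIF libraries or either LIF/serum Dax1KO library, while in LIF/serum 1 higher and 1 lower call were made whichever library was left out.

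Few partners of TCL1 and FBXO15 were called between genotypes. Of 20 genes of the TCL1 family and the AKT pathway, 15 could be tested, and the 5 Tcl1b genes held 0 to 11 counts a library. In 2i/LIF 0 of the 15 were called by edgeR between genotypes (1 at an unadjusted p under 0.05 and 0 by DESeq2). Of all tested genes, 1.51% were called higher and 1.65% lower there. In LIF/serum, Dax1KO had Foxo3, a transcription factor restrained by AKT, higher (0.51, SE 0.134, adjusted p = 0.0405). In all 1 of the 15 was called higher and 1 lower, against 8.87% and 5.78% of all tested genes. Between media in control ESCs, Gsk3b, a kinase restrained by AKT (1.06, adjusted p = 0.00546), was higher in 2i/LIF, and Eras, a Ras protein of ESCs (-2.20, adjusted p = 0.000215), was lower. Of the 6 SCF genes, Ube2m, which attaches NEDD8 to cullins, was lower in Dax1KO in 2i/LIF (-0.60, SE 0.113, adjusted p = 0.0355). Skp1a, the adaptor that holds F-box proteins, was lower in Dax1KO in LIF/serum (-0.62, SE 0.136, adjusted p = 0.0222). Each was the 1 call among the 6 between genotypes in its medium. The share of all tested genes called lower was 1.65% for the Ube2m comparison and 5.78% for that of Skp1a. In control ESCs 2 of the 6, Cul1 (-0.71, adjusted p = 0.00324) and Rbx1 (-0.50, adjusted p = 0.0276), were lower in 2i/LIF, against 16.5% of all tested genes, with 1 of the 6 called without the first 2i/LIF control or second LIF/serum control library and 3 without either LIF/serum Dax1KO library. The Ube2m call was lost without any 1 of the 2i/LIF or LIF/serum Dax1KO libraries, that of Skp1a without either 2i/LIF Dax1KO library, the second LIF/serum control or the first LIF/serum Dax1KO library, and in the AKT list no call between genotypes in LIF/serum was made without any 1 of the 2i/LIF or LIF/serum Dax1KO libraries.

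The pluripotency transcription factors gave a reference for the 9 markers. Of 15 factors, 4 were lower in Dax1KO in 2i/LIF, against 1.65% of all tested genes, with a median log2 difference of -0.43 where that of all tested genes was -0.011. Among them were Prdm14 (-0.86, SE 0.171, adjusted p = 0.0412), Nr5a2 (-0.81, SE 0.141, adjusted p = 0.0276) and Klf2 (-0.76, SE 0.161, adjusted p = 0.0488). The count of 4 became 0 without either 2i/LIF control or either 2i/LIF Dax1KO library and 1 without either LIF/serum Dax1KO library. In LIF/serum Nr5a2 (-1.30, SE 0.142, adjusted p = 0.00244) and Klf2 (-1.14, SE 0.162, adjusted p = 0.00565) were lower and Klf4 higher (0.79, SE 0.138, adjusted p = 0.0107). These made 2 of the 15 lower and 1 higher, against 5.78% and 8.87% of all tested genes. Pou5f1, Sox2, Nanog and Esrrb were not called between genotypes in either medium, which does not show equal levels. In 2i/LIF they differed by -0.43, -0.50, -0.16 and -0.06 (adjusted p = 0.126, 0.0649, 0.497 and 0.920). In LIF/serum the values were -0.20, -0.34, 0.28 and 0.17 (adjusted p = 0.330, 0.0882, 0.111 and 0.583). Between media in control ESCs, 5 factors were higher in 2i/LIF and 3 lower, against 20.3% and 16.5% of all tested genes, among them Prdm14 (1.80, adjusted p = 0.000214) and Nanog (1.39, adjusted p = 7.44e-05) on the higher side. The Klf4 call was lost without the first LIF/serum Dax1KO library. Of 11 other transcripts enriched in ESCs, L1td1, an RNA-binding protein of ESCs, was lower in Dax1KO in both media (-0.74 and -1.17, adjusted p = 0.0172 and 0.00158), and Gdf3, a TGF-beta family ligand, was lower in LIF/serum (-0.55, adjusted p = 0.0183). These made 1 of the 11 lower in 2i/LIF and 2 in LIF/serum, against 1.65% and 5.78% of all tested genes. Without any 1 of the 2i/LIF libraries L1td1 was no longer called there, and in LIF/serum the list had 1 lower call in place of 2 without the second control or either Dax1KO library of that medium, and 4 without the first control library. Dppa1 had 30 and 57 counts in 2i/LIF control, 172 and 261 in 2i/LIF Dax1KO and 0 in every LIF/serum library, at least 27.3-fold higher in 2i/LIF in control ESCs against a floor of 3 counts over the group. Sp110, Dnmt1, Dnmt3l, Dnmt3a, Dnmt3b, Tet1, Mthfd2, Ahcy, Gsk3b, Eras, Skp1a, Cul1, Pou5f1 and Sox2 overlap other annotated genes, and near-identical copies match 44.3% of the Uhrf1 transcript, 21.7% of Pou5f1, 17.3% of Tyms, 12.5% of Eras and 11.1% of Nanog, so their counts are uncertain to that extent.

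Across the 8 libraries, the 6 genes called between media in control ESCs varied with one another more closely than Dppa5a and Tcl1 did with any of the 9. The Pearson r of log2 CPM was 0.95 between Dppa2 and Dppa4, 0.97 between Dppa2 and Utf1, 0.88 between Pramel6 and Pramel7 and 0.96 between Pramel6 and Fbxo15, while that between Dppa2 and Pramel6 was -0.97. The libraries form 2 sets by medium, so such values describe mainly that split and carry no p. Among 11963 protein-coding genes with a mean of at least 100 counts, the one most like Dppa2 was Has2 (r = 0.996), followed by Lgals9 and Dnmt3l, and the one most like Dppa4 was Odc1 (0.996), followed by Gm17509 and Gm49342. For Utf1 it was Tcea3 (0.993, then Eid2 and Nr4a1), for Pramel6 Neb (0.996, then Glis3), for Fbxo15 Tex13c2 (0.996, then Slc25a4 and Tm2d1) and for Pramel7 Fanca (0.980, then Ddx43 and Slc25a20). Tdh, whose levels set 2i/LIF Dax1KO apart from the other groups, was most like Ppm1b (0.993, then Pcolce2 and Fbp2). Dppa5a was most like Ndufa8 (0.968, then Rps28 and Psmd10) and Tcl1 like Ube2t (0.943, then Cenpa and Nfyb), and these last 2 genes varied least, with SDs of log2 CPM of 0.24 and 0.19 against 1.46 for Pramel6.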

How the data were processed

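RNA-seq libraries of mouse ESCs, 2 for each of 4 groups, were analysed from the counts per gene that the authors deposited. The submitters' processing notes name HISAT2 2.0.4, the mm10 build and DESeq2, and the counting tool and annotation are not given in the sources used here. Values are raw counts with no pooling described, and low values pile up at multiples of 3 (11738 entries of 3 and 5661 of 6), so counts divided by 3 were tried as an alternative. Gene names and positions came from GENCODE M21 (52403 of 52550 IDs found). Genes were filtered with filterByExpr and fitted with edgeR 4.0.16 in R 4.3.3, with TMM scaling and a mean for each group over all 8 libraries. Library totals limit precision for low genes, and replicates differed beyond counting noise. RPKM were computed here from TMM-scaled counts and merged exon lengths. Near-identical transcripts were found with blastn 2.17.0. The scripts were tested on simulated data.

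The members and lists were chosen with earlier results of these data known. All 9 genes are named. From each list, at most the 4 called genes with the largest change in a comparison are named, and others named, such as Gcat, Tcstv1 and the core pluripotency factors, were chosen after their values were seen. Some genes that these rules would name are not reported here. Alternatives were DESeq2 1.42.0, RLE factors, no filter, at least 10 counts in every library, separate fits, a replicate block, a fold change of 2, unadjusted p, thinned counts, counts divided by 3, and each of the 8 libraries left out. When 1 library of a group is left out, the remaining one is assumed to vary like the other groups. Counts of list genes under these alternatives and bounds for genes at 0 were added after the data were seen. All columns of counts were used.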

Additional observations from a re-analysis of the deposited data

Results flagged for a closer look

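For Pramel7 both 2i/LIF Dax1KO libraries (320 and 283 normalized counts) lay below both control libraries (542 and 469), and both LIF/serum Dax1KO libraries (231 and 158) lay above both control libraries (124 and 126). The difference between these effects, 1.39 on the log2 scale, was tested as an interaction and had an adjusted p of 0.0659 by edgeR's quasi-likelihood test, with a range over the alternatives that kept all libraries of 0.0104 to 0.127.

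For Fbxo15 both 2i/LIF Dax1KO libraries (26040 and 26622 normalized counts) lay above both control libraries (21148 and 26001), by a narrow margin against the second, and both LIF/serum Dax1KO libraries (6818 and 7107) lay below both control libraries (8496 and 10612). The difference between the effects was -0.62 on the log2 scale (adjusted p = 0.152 by edgeR, 0.0704 to 0.268 over those alternatives). Summed marker levels in the LIF/serum Dax1KO libraries against the LIF/serum controls were 548 to 654 against 254 to 346 CPM for primitive endoderm, 148 to 170 against 77.7 to 79.7 for trophectoderm, 29.0 to 31.5 against 13.7 to 13.9 for mesoderm, 39.0 to 41.1 against 12.6 to 13.2 for fibroblast and 120 to 147 against 149 to 166 for neural ectoderm. In 2i/LIF the Dax1KO libraries had 57.1 to 72.1 against 75.4 to 76.8 CPM for primitive endoderm, 156 to 167 against 58.9 to 77.7 for trophectoderm, 34.8 to 35.0 against 29.0 to 29.7 for mesoderm, 33.8 to 35.8 against 50.8 to 63.9 for fibroblast and 118 to 118 against 138 to 140 for neural ectoderm. The mesoderm and fibroblast sums in 2i/LIF ran against the median log2 differences of their genes (-0.69 and 0.71). The part of these markers in either result was not tested.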

How the results depend on the processing

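Of 801 values of the 9 genes under the alternatives, 749 kept their direction and side of the threshold, 12 lost and 14 gained a call, and 26 turned sign, all of them uncalled. Of the 9 genes, 6 stayed called between media in control ESCs in every alternative, and 5 to 7 in Dax1KO ESCs. Genes called for Dax1KO in 2i/LIF (656) were 1441 with DESeq2, 121 with no filter, 408 at a fold change of 2, 3682 at unadjusted p, and 38 to 673 with 1 library left out. In LIF/serum (3041) they were 6335 at unadjusted p, 1842 with no filter, 1743 in a separate fit, 1420 at a fold change of 2, and 728 to 2496 with 1 library left out. For the interaction (596) they were 1510, 119 and 3970 with DESeq2, no filter and unadjusted p, and 36 to 344 with 1 library left out. Between media they were 4535 in control and 3580 in Dax1KO ESCs at a fold change of 2, and 5057 to 7120 and 2986 to 6286 with 1 library left out. Of the 9 genes, the 1 called in 2i/LIF became 0 with no filter, a separate fit, a fold change of 2, and 2 at unadjusted p, and 0 to 1 with 1 library left out. The 0 in LIF/serum became 1 with DESeq2, 3 at unadjusted p and 0 to 1 with 1 library left out, and the 0 of the interaction became 1 with DESeq2 and 3 at unadjusted p. The cause of these changes was not tested, except that a stricter fold or looser p calls fewer or more genes by construction. With the replicate number as a block, 0 of the 9 genes were called in 2i/LIF (Tdh, adjusted p = 0.0531), 1 in LIF/serum (Fbxo15, 0.0406), 7 between media in Dax1KO ESCs (Pramel7 added, 0.0461), and 573, 3218 and 552 genes in all for Dax1KO in each medium and their interaction. Libraries of the same number correlated by 0.080, 0.108, 0.062 and -0.002 between groups, so the numbers were not taken to pair them. Signs that turned were, on the log2 scale, those of Utf1 for Dax1KO in LIF/serum (0.01 with no filter and with the block) and Dppa5a between media in control ESCs (-0.001 with at least 10 counts in every library, -0.004 with counts divided by 3). With 1 library left out they ranged, for Dax1KO in 2i/LIF, from -0.27 to 0.31 for Dppa2 and -0.44 to 0.07 for Pramel6, in LIF/serum -0.25 to 0.37 for Dppa5a, from -0.11 to 0.04 for Tdh, -0.32 to 0.16 for Pramel6, -0.15 to 0.15 for Utf1 and -0.09 to 0.24 for Tcl1, for the interaction -0.24 to 0.37 for Dppa2, -0.19 to 0.03 for Dppa4, -0.44 to 0.18 for Dppa5a and -0.17 to 0.35 for Pramel6, and between media in control ESCs -0.24 to 0.36 for Dppa5a. With 2 libraries a group and a biological coefficient of variation of 20.9% over all tested genes, the spread between libraries limited the precision, and the intervals in the report bound what could be seen.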
